A study of Mus musculus with 12 samples.

Results

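Expression of 9 genes that mark T and B lymphocytes was examined in the 12 RNA-seq libraries of this study. The genes were chosen by symbol, with earlier results of these data known, and all 9 were found among the 22276 gene symbols listed. They are 6 T cell genes (Cd3d, Cd3e, Cd3g, Cd4, Cd8a and Cd8b1) and 3 B cell genes (Cd79a, Cd79b and Ms4a1). The libraries came from WAT, BAT, liver and quadriceps muscle of male C57BL/6J mice aged 17 wk in 3 groups, and each of the 12 combinations has 1 library. NCD-veh mice ate normal chow and received the vehicle, a cyclodextrin solution. HFD-veh mice ate the high-fat diet from 8 wk of age and received the vehicle, and HFD-ncls mice ate the same diet and received narciclasine (ncls), a plant alkaloid, at 1 mg/kg. Dosing was once a week by gavage, lasted 7 wk and began at 10 wk of age. No genetic change is given for any group, and neither the WAT depot nor the number of mice behind a library is stated in the sources used here.

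T cells recognize peptides through a receptor whose signal is carried into the cell by the CD3 chains. The CD4 coreceptor marks helper T cells and the CD8 pair marks cytotoxic T cells, while in B cells the antigen receptor signals through CD79A and CD79B. Both kinds of cell live in adipose tissue beside macrophages. Macrophages accumulate there in obesity, and lymphocytes of adipose tissue are known to change in number and kind with diet. In a whole organ these transcripts are a small part of the RNA, and a lower level cannot be told apart as fewer cells or as less RNA per cell.

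Levels are given as FPKM, the fragments of a gene scaled to its length and to the depth of its library, so they can be compared between genes. Where 3 values of an organ follow each other with no group named, they stand in the order NCD-veh, HFD-veh, HFD-ncls. With 1 library per organ and group there is no spread between mice, so no p-value is given and all differences describe these libraries. Differences are on log2(FPKM + 0.1), which understates the change of genes with low values. A gene was called different when FPKM + 0.1 differed over 2-fold and the FPKM reached 1 in at least 1 of the 2 libraries compared. Depth, as estimated from the steps of low values, was 18600000 to 26600000 fragments per library. At that depth the members' values in WAT rested on about 4.60 to 122 fragments each, and in muscle on at most about 18.1. The labels of the organs matched their markers. Fabp4 was at 11212 to 12720 FPKM in WAT, Ucp1 at 740 to 770 in BAT, Apoa1 at 9999 to 13444 in liver and Ckm at 15744 to 16456 in muscle. Some libraries also held transcripts typical of another organ, and whether they came from that organ was not tested. Relative to liver, the median of 12 hepatocyte genes was 0.0774% in HFD-veh WAT, 0.219% in HFD-ncls WAT and 0.548% in HFD-veh muscle. Relative to muscle, that of 10 muscle fibre genes was 1.89%, 0.767% and 0.123% in the BAT libraries. At these shares no member would gain more than 0.00420 FPKM from liver or muscle RNA.

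The genes lie on 5 chromosomes of mm9, and all are protein-coding. The 3 CD3 genes form a cluster on chromosome 9, with Cd3g (44777655 to 44788514, minus strand) and Cd3d (44789876 to 44795135, plus strand) facing away from each other across 1362 bases, and Cd3e (44806826 to 44817673, minus strand) farther along. Cd8b1 (71272830 to 71287471) and Cd8a (71323421 to 71329165) are neighbours on chromosome 6, which also holds Cd4 (124814710 to 124838239). Cd79a lies on chromosome 7 (25682400 to 25687216), Cd79b on chromosome 11 (106172655 to 106176076) and Ms4a1 on chromosome 19 (11324654 to 11340669). Ms4a1 is overlapped by a lincRNA gene, 4930526L06Rik, listed at under 0.1 FPKM in every library. Whether the counting used strand is not given in the sources used here, so reads of this pair cannot be told apart.

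RefSeq promoters were matched for 5 of the 9 genes, Cd3d, Cd3e, Cd3g, Cd8a and Cd79a. The 250 bases before the RefSeq start site are shown for 3 of them, the divergent pair Cd3g and Cd3d and the B cell gene Cd79a, as examples of both lineages. Each sequence occurs once in mm9, at chr9:44788515-44788764 (minus strand), chr9:44789619-44789868 (plus strand) and chr7:25682266-25682515 (plus strand), and is written 5′ to 3′ with the E-box CAGNTG, on either strand, in capitals. The RefSeq start of Cd79a lies downstream of the GENCODE start given above, so its window reaches into the gene as placed there.
Cd3g: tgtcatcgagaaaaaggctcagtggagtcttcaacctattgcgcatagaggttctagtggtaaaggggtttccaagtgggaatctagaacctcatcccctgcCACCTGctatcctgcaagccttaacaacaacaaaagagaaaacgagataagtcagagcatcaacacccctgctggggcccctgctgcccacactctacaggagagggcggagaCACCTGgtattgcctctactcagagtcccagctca
Cd3d: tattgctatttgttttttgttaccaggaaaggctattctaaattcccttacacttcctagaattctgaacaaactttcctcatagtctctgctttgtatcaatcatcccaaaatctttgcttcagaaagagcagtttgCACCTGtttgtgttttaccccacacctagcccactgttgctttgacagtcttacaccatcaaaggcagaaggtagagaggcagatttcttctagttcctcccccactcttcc
Cd79a: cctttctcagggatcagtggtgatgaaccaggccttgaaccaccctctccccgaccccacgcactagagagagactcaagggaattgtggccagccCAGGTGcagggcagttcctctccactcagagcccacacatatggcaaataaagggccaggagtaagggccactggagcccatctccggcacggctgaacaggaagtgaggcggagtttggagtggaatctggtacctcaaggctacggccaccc
The E-box is the motif bound by E proteins, which are needed for both lymphocyte lineages. It was found in 3 of the 5 members' windows and in 44.8% of all 32851 promoter windows of this length.

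Lymphocyte genes were highest in WAT, with Cd4 as the exception. Cd79b, one of the chains that signal for the B cell receptor, was at 4.05, 1.405 and 3.39 FPKM in WAT. Its highest value in the other organs was 0.701 FPKM, in HFD-ncls BAT. Every WAT library was thus above all 9 others for this gene. The same held for Cd3d, Cd3e, Cd8a and Ms4a1. Cd3g missed this by little, at 0.495 FPKM in HFD-veh WAT and 0.498 in HFD-veh liver. For Cd8b1 and Cd79a the WAT range overlapped that of the next organ, BAT and liver respectively. Between BAT and liver the 3 libraries overlapped for all members but Cd4. Muscle had the lowest mean for all members but Ms4a1, whose muscle, BAT and liver values overlapped. In muscle, 9 of 27 values were under 0.001 FPKM, among them all 3 of Cd8a. Ptprc, the pan-leukocyte gene that encodes CD45, was at 11.4 to 17.3 FPKM in WAT and at most 0.825 FPKM in any other organ.

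**Figure D1:**
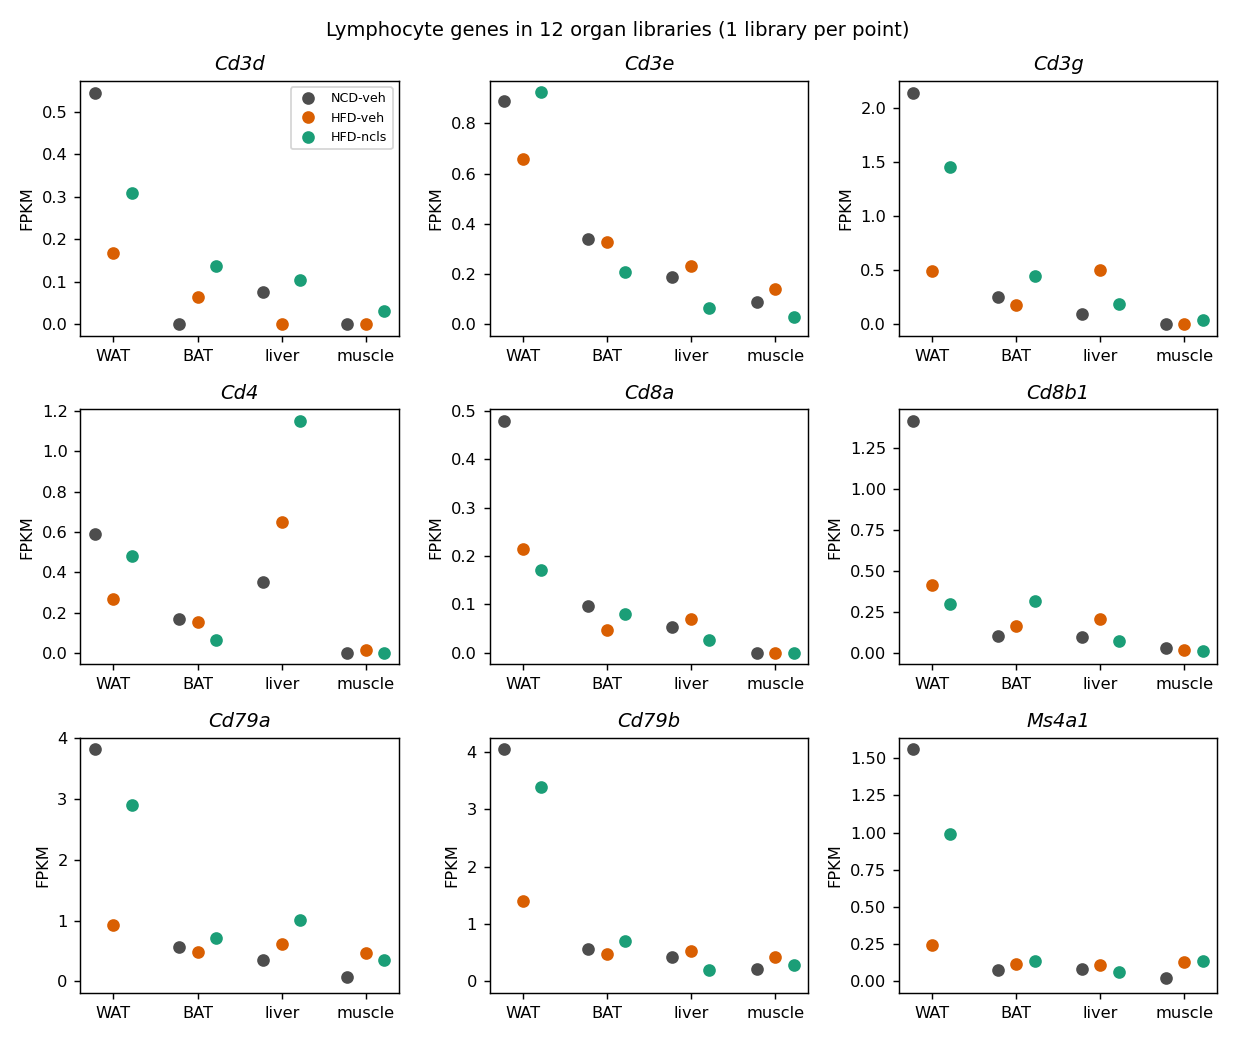
FPKM of the 9 lymphocyte genes (vertical axes, linear, with a different range for each gene) in WAT, BAT, liver and muscle (horizontal axes). Each point is 1 library, coloured by group. WAT NCD-veh is the highest point for every gene but Cd3e and Cd4, and Cd4 is highest in HFD-ncls liver, at 1.15 FPKM.

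To see how lymphocyte transcripts of WAT differed with diet, HFD-veh was compared with NCD-veh. All 9 members were lower in the HFD-veh library, their median log2 difference being -1.46, against 0.03 over the 12208 genes that reached 1 FPKM. Cd3g, Cd8b1, Cd79a, Cd79b and Ms4a1 were called lower, as were 3.87% of all genes tested, and the other 4 members were below 1 FPKM in both libraries. Of the 5 called, all but Cd79b reached 1 FPKM only in NCD-veh, so the filter itself favoured a lower call. Ms4a1, which encodes the B cell surface protein CD20, was at 1.56 FPKM in NCD-veh and 0.243 in HFD-veh, a log2 difference of -2.27 that rested on about 82.7 and 12.7 fragments. Cd79a, the partner of Cd79b, was at 3.82 and 0.922 FPKM, a log2 difference of -1.94. For Cd79b the difference was -1.46. The 3 B cell genes had a median of -1.94, and the 6 T cell genes one of -1.09.

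Among the T cell genes, Cd3g was at 2.14 FPKM in NCD-veh WAT and 0.495 in HFD-veh WAT, a log2 difference of -1.91. Cd3d, another chain of the CD3 complex, was at 0.544 and 0.168 FPKM. Cd3e, the chain that pairs with both, was at 0.888 and 0.658 FPKM, the smallest difference of the 9 (-0.38). The 3 chains are parts of 1 receptor, yet their differences ranged from -0.38 to -1.91. Cd8b1 and Cd8a, the chains of CD8, differed by -1.55 and -0.88, and Cd4 by -0.92. The ratio of Cd4 to Cd8a FPKM was 1.23 in both libraries. HFD-veh WAT held only about 4.60 fragments of Cd3d and 10.5 of Cd3g, so the chains cannot be ranked by their differences at this depth.

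Pan-leukocyte and macrophage genes were not lower together with the lymphocyte genes in this comparison. In the pan-leukocyte list, 11 of 12 genes were higher (median log2 difference 0.59), and Itgb2 and Lcp1 were called higher. Of 12 macrophage genes, 4 were called higher and none lower, namely Itgax (2.79 and 20.4 FPKM in NCD-veh and HFD-veh), Lgals3, Cd68 and Emr1, while 5.24% of all genes tested were called higher. The median of the list was 0.23, and Cd163, Cd5l and Cd14 were lower, Cd163 at 24.1 and 15.3 FPKM. The summed level of the macrophage list was 765, 1241 and 1513 FPKM. The sum of the 3 B cell genes per unit of Ptprc was 0.827 in NCD-veh WAT and 0.172 in HFD-veh WAT. For the 3 CD3 genes the corresponding ratios were 0.313 and 0.0884. The part of the macrophage genes in the lower lymphocyte values was not tested.

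Other lymphocyte genes were compared from lists chosen by function. Of 15 other T cell genes, 12 were lower in HFD-veh WAT (median -0.89). Lat (an adaptor of the T cell receptor) and Lck (the kinase that phosphorylates CD3) were called lower, and Ptpn22, a phosphatase of many leukocytes, was called higher. Cd2, an adhesion receptor of T and NK cells, was at 5.96 and 2.97 FPKM. Of 19 other B cell genes, 14 were lower (median -0.79), and Bank1 was called lower. Blnk and Cd72 were called higher, at 3.38 and 10.35 FPKM for Blnk, an adaptor that macrophages express too. NK and cytotoxic genes stood with the lymphocyte genes, since 12 of 13 were lower (median -0.67), and Ccl5 (18.1 and 7.71 FPKM) and Nkg7 (3.45 and 1.48 FPKM) were called lower. Igj, the joining chain of secreted IgM and IgA made by plasma cells, was at 7.68 and 2.02 FPKM and was called lower, but 3 of the 6 plasma cell genes were higher (median 0.07). Siglech, a marker of plasmacytoid dendritic cells, was at 1.87 and 0.378 FPKM and was called lower, while the other 7 of 8 dendritic cell genes were higher (median of the list 0.14). Of 8 lymph node stroma and high endothelium genes, 7 were lower (median -0.87) and Chst4 and Fmod were called lower. The part of the NK or lymph node genes in the members' values was not tested.

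**Figure D2:**
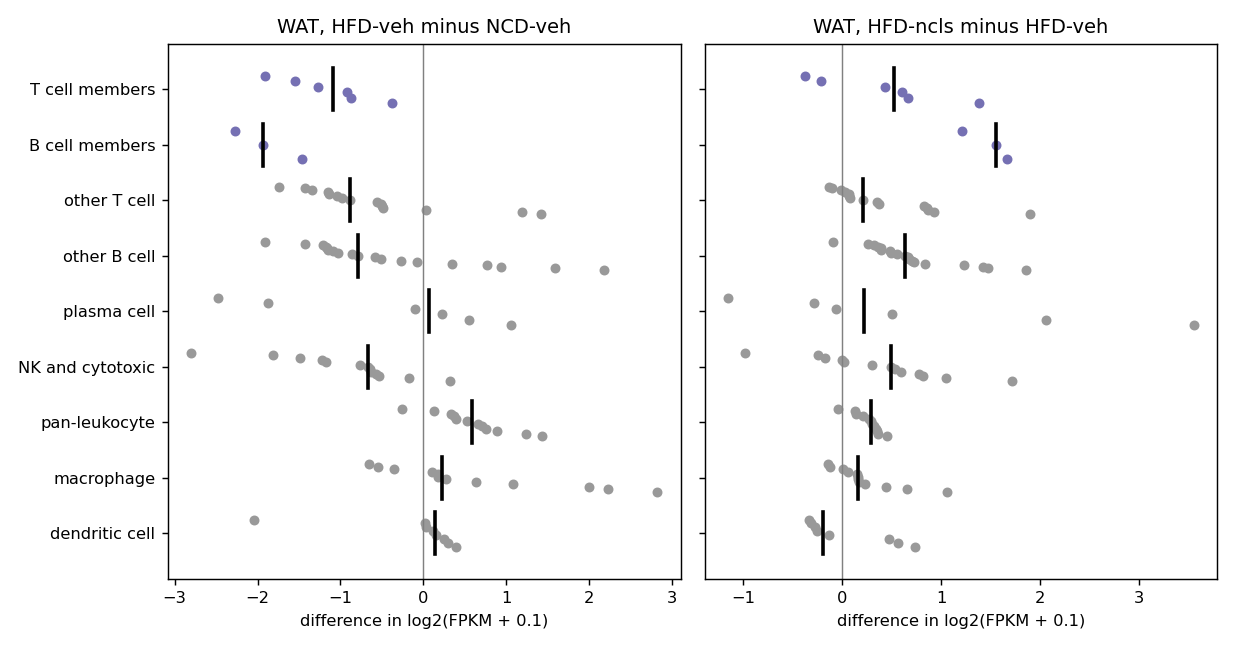
Difference in log2(FPKM + 0.1) (horizontal axes) of the T and B cell members and of 7 other gene lists (rows) in WAT, for HFD-veh minus NCD-veh (left) and HFD-ncls minus HFD-veh (right). Each point is 1 gene and each black bar the median of its row. On the left the medians of both member rows lie below 0 (-1.09 and -1.94) and that of the pan-leukocyte row above (0.59).

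To see how these genes differed with ncls on the high-fat diet, HFD-ncls was compared with HFD-veh. This comparison shares the HFD-veh library with the one above, so the values of both are given side by side and no relation between them is computed. In WAT the 3 B cell genes were all higher in HFD-ncls, with a median log2 difference of 1.56, against 0.04 over the 12152 genes that reached 1 FPKM. Cd79a was at 2.91 FPKM in HFD-ncls WAT, compared with 0.922 in HFD-veh and 3.82 in NCD-veh. Ms4a1 was at 0.988, 0.243 and 1.56 FPKM in the same order. For all 3 genes the HFD-ncls value lay between those of the other WAT libraries. A low HFD-veh value by itself would give both differences, so no return towards NCD-veh can be read from this order. Cd79a, Cd79b and Cd3g were called higher, and no other member reached 1 FPKM. Cd79a and Cd3g reached it only in HFD-ncls, so the filter itself favoured a higher call. Of all genes tested, 1.49% were called higher and 0.214% lower. Ms4a1, at just under 1 FPKM, was not eligible for a call.

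The T cell genes of WAT did not all lie in 1 direction with ncls, and their median was 0.52. Cd3g was at 2.14, 0.495 and 1.45 FPKM, HFD-ncls being above HFD-veh by a log2 difference of 1.38. Cd3d, Cd3e and Cd4 were higher in HFD-ncls by 0.61, 0.43 and 0.67. Both CD8 chains were lower, Cd8a at 0.171 against 0.216 FPKM and Cd8b1 at 0.298 against 0.416 FPKM. NCD-veh WAT was at 0.479 FPKM for Cd8a and 1.41 for Cd8b1, so HFD-ncls was the lowest WAT library for either chain. The ratio of Cd4 to Cd8a FPKM was 2.80 in HFD-ncls WAT and 1.23 in the other WAT libraries. About 9.95 fragments of Cd8a and 7.87 of Cd8b1 lie behind the HFD-ncls values, and about 14.0 and 12.2 behind those of HFD-veh, which is too few to tell these libraries apart.

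Genes of antibody-secreting cells were mixed in this comparison, with 3 of 6 higher in HFD-ncls WAT and a median of 0.22. Igj was at 7.68, 2.02 and 8.71 FPKM in WAT, and Mzb1, a chaperone of antibody assembly, at 0.811, 0.0642 and 1.83 FPKM. These were the plasma cell genes called higher, while Tnfrsf17, a receptor of plasma cells, was at 0.720, 0.667 and 0.244 FPKM. Of 19 other B cell genes, 18 were higher in HFD-ncls (median 0.64), and Pou2af1, a coactivator of immunoglobulin genes, was called higher (1.09 and 0.343 FPKM). Cxcl13, the chemokine that attracts B cells, was at 4.57, 2.26 and 10.3 FPKM. It was the gene called higher in HFD-ncls among 8 lymph node genes with values. Of the others, Chst4, a sulfotransferase of high endothelial venules, was at 9.43, 3.59 and 3.97 FPKM, and Glycam1, a defining gene of such venules, was at 0.208 FPKM in NCD-veh and listed at 0 in both HFD libraries. The list summed to 106, 93.1 and 122 FPKM, mostly from Cxcl12 (34.9, 61.5 and 79.1) and Fmod (51.1, 22.4 and 25.3). Neither level was particular to WAT, since Cxcl12 was at 141, 105 and 100 FPKM in liver and Fmod at 16.1, 10.5 and 33.6 in muscle. Whether lymph node tissue in the dissected WAT contributed to the members' values was not tested.

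In the other T cell list 12 of 15 genes were higher in HFD-ncls WAT, none was called, and the median was 0.21. The pan-leukocyte list had a median of 0.29, with 11 of 12 genes higher and none called. In the macrophage list Cd5l was called higher and the median was 0.16. The sum of the B cell genes per unit of Ptprc was 0.421 in HFD-ncls WAT, between 0.172 in HFD-veh and 0.827 in NCD-veh. For the CD3 genes it was 0.155, between 0.0884 and 0.313. Hepatocyte genes moved with the same comparison. Of 12 genes, 10 were called higher in HFD-ncls WAT, and their summed level was 3.73, 39.1 and 136 FPKM in WAT. At the share of liver RNA given above, HFD-ncls liver would add 0.00222 FPKM to Cd79a, whose level in HFD-ncls WAT was 2.91. The part of liver RNA in the WAT values was not tested further.

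**Figure D3:**
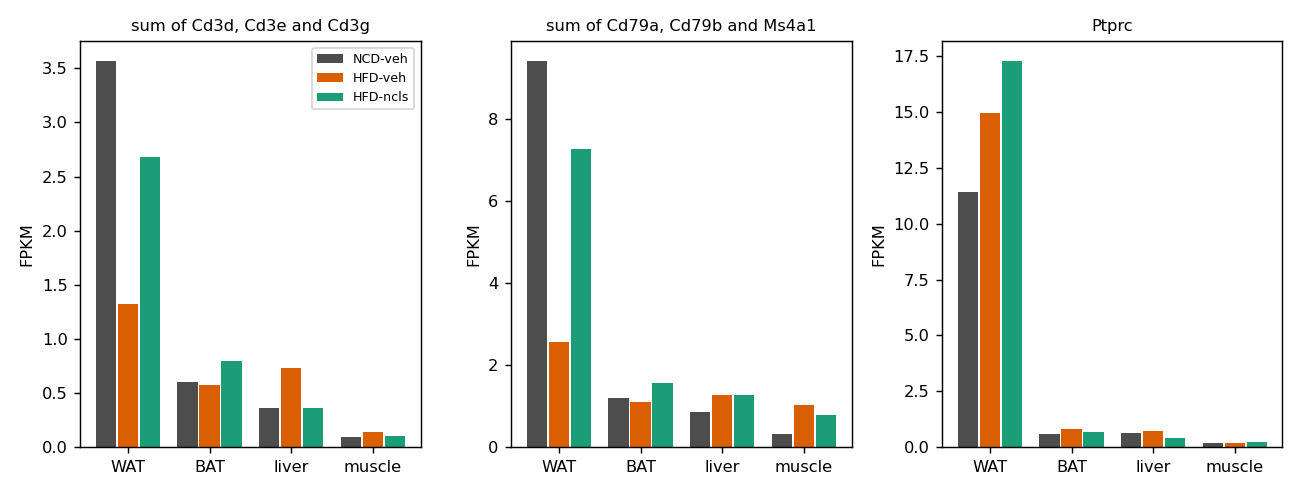
Summed FPKM of the 3 CD3 genes (left), summed FPKM of the 3 B cell genes (middle) and FPKM of Ptprc (right), with 1 bar per library, grouped by organ and coloured by group. In WAT the B cell sum is 9.43, 2.57 and 7.28 (NCD-veh, HFD-veh, HFD-ncls), while Ptprc is 11.4, 14.95 and 17.3.

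In BAT no member reached 1 FPKM and none could be called in either comparison. Cd79a was at 0.562, 0.489 and 0.718 FPKM, and Cd79b at 0.564, 0.479 and 0.701. The ratio of these chains stayed between 0.996 and 1.02 in the 3 libraries. Between HFD-veh and NCD-veh BAT the median log2 difference was -0.07 for the T cell genes and -0.17 for the B cell genes. Between HFD-ncls and HFD-veh 7 of the 9 members were higher, with medians of 0.41 and 0.47. Cd3e and Cd4 were the exceptions. Cd3e was at 0.341, 0.327 and 0.208 FPKM, and Cd4 at 0.170, 0.152 and 0.0634. Without the FPKM filter no member differed over 2-fold in FPKM + 0.1 in BAT, although in FPKM itself Cd3d (2.11-fold higher), Cd3g (2.50-fold higher) and Cd4 (2.396-fold lower) did with ncls and Cd8a (2.09-fold lower) with diet. By the rule on FPKM + 0.1, 2.19% of all genes were higher and 1.94% lower with diet, and 0.752% higher and 2.02% lower with ncls. In 15 of the 27 member values of BAT fewer than 10 fragments were estimated. The macrophage list summed to 48.0, 80.0 and 41.9 FPKM in BAT, with Lgals3 and Cd68 called higher with diet and lower with ncls, and the muscle fibre genes given above were also lower in HFD-ncls BAT. The part of either in the members' values was not tested.

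Liver was the organ in which Cd4 stood apart from the other T cell genes. Cd4 was at 0.351, 0.649 and 1.15 FPKM in liver, which rested on about 26.04, 46.2 and 85.1 fragments. In HFD-ncls liver it was above every other Cd4 value of the 12 libraries. The summed FPKM of the CD3 genes was 0.362, 0.730 and 0.359 in the same livers and was highest in HFD-veh. Cd4 was 0.165 to 0.201 times the CD3 sum in WAT, and 0.971, 0.889 and 3.21 times in liver. CD4 is also found on some dendritic cells of mice. Of 8 dendritic cell genes, 7 were higher in HFD-ncls than HFD-veh liver (median 0.37, none called), and 5 were lower in HFD-veh than NCD-veh liver (median -0.15). That list summed to 3.06, 1.66 and 2.45 FPKM. Of the macrophage genes, Clec4f and Cd5l, which mark the resident Kupffer cells of the liver, had lower values in the same order, at 22.9, 16.3 and 12.2 FPKM for Clec4f and 26.9, 13.4 and 9.99 for Cd5l. The macrophage list summed to 93.8, 63.7 and 48.4 FPKM in liver, and the part of either list in the Cd4 values was not tested. Gpr162, the gene nearest to Cd4, was at 0.395, 0.215 and 0.522 FPKM, and its part in the Cd4 values was not tested.

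The B cell receptor chains parted in HFD-ncls liver. Cd79a was at 0.348, 0.617 and 1.01 FPKM, and Cd79b at 0.432, 0.533 and 0.197. Their ratio was 5.13 in HFD-ncls liver and between 0.295 and 1.22 in the other 11 libraries. The HFD-ncls liver values rested on only about 35.0 fragments of Cd79a and 6.70 of Cd79b. Ms4a1 was at no more than 0.110 FPKM in any liver. Arhgef1, which begins 715 bases past the end of Cd79a on the same strand, was at 11.96, 8.58 and 12.6 FPKM in the 3 livers. No liver member met the rule for a call in either comparison, although 2 of them, Cd4 and Cd79a, reached 1 FPKM in HFD-ncls. Of all genes tested there with ncls, 1% were called higher and 1.31% lower. Over the T cell genes the median log2 difference was 0.41 between HFD-veh and NCD-veh and -0.63 between HFD-ncls and HFD-veh. The B cell genes had medians of 0.25 and -0.36. HFD-veh liver, which enters both comparisons, is the liver library with muscle fibre transcripts, at a median of 0.0626% of the muscle level. At that share muscle RNA would add 0.000293 FPKM to Cd79a, whose level in HFD-veh liver was 0.617. The part of this RNA was not tested further. Without the FPKM filter, Cd3g was over 2-fold higher in HFD-veh than NCD-veh liver, Cd3e, Cd3g and Cd79b were over 2-fold lower in HFD-ncls than HFD-veh liver, and Cd3d was over 2-fold higher. Cd3d was listed at 0 in HFD-veh liver, and these values rest on at most about 17.5 fragments each. Among all genes without the filter, 2.42% were higher and 2.2% lower with diet, and 1.46% higher and 1.5% lower with ncls.

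In muscle the B cell genes had the highest means over the 3 libraries among the members. Cd79a was at 0.0655, 0.468 and 0.349 FPKM in muscle, on about 2.42, 18.1 and 13.3 fragments. Ms4a1 was at 0.0198, 0.132 and 0.134 FPKM, and Cd79b at 0.222, 0.423 and 0.286. All 3 genes were lowest in NCD-veh muscle. Their median log2 difference was 0.95 between HFD-veh and NCD-veh and -0.34 between HFD-ncls and HFD-veh. None reached 1 FPKM, so none could be called. In FPKM + 0.1 without the filter, Cd79a was over 2-fold higher in HFD-veh muscle and no member was over 2-fold different with ncls. In FPKM itself Ms4a1 was 6.67-fold higher with diet and Cd3e 4.92-fold lower with ncls, on few fragments. Of all genes in FPKM + 0.1 without the filter, 3.11% were higher and 1.17% lower with diet, and 1.53% higher and 2.63% lower with ncls. HFD-veh muscle is the library with liver transcripts, which at their share would add 0.00339 FPKM to Cd79a. HFD-ncls muscle, with hepatocyte genes at a median of 0.000844% of the liver level, was at 0.349 FPKM for Cd79a. The part of liver RNA in the muscle values was not tested further. Of 9 adipocyte genes, 6 were also higher in HFD-veh than NCD-veh muscle, among them Adipoq at 11.4, 21.1 and 14.3 FPKM. The median log2 difference of this list with diet was 0.88. Lep, Cidec, Plin1 and Retn were called higher in HFD-veh muscle and Cfd was called lower. Cidec was at 5.89, 15.2 and 9.77 FPKM. With ncls the median was -0.55, and Lep and Retn were called lower. The list summed to 429, 444 and 459 FPKM, mostly from Fabp4 (232, 284 and 291), so the sum does not show these differences. The part of the adipocyte genes in the B cell values was not tested.

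The T cell genes were near the limit of detection in muscle. Cd3e was at 0.0896, 0.142 and 0.0289 FPKM, about 3.27, 5.43 and 1.09 fragments. Cd3d and Cd3g were listed at 0 in both veh libraries of muscle and held about 1.09 and 1.16 fragments in HFD-ncls. Cd4 was listed at 0 in 2 of the 3 libraries. The sum of the B cell genes over that of the T cell genes was 2.56, 6.03 and 6.81 in the muscle libraries, and 0.762 to 2.01 in the other organs. A difference of the T cell genes with diet or ncls was not detectable in muscle at this depth.

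**Figure D4:**
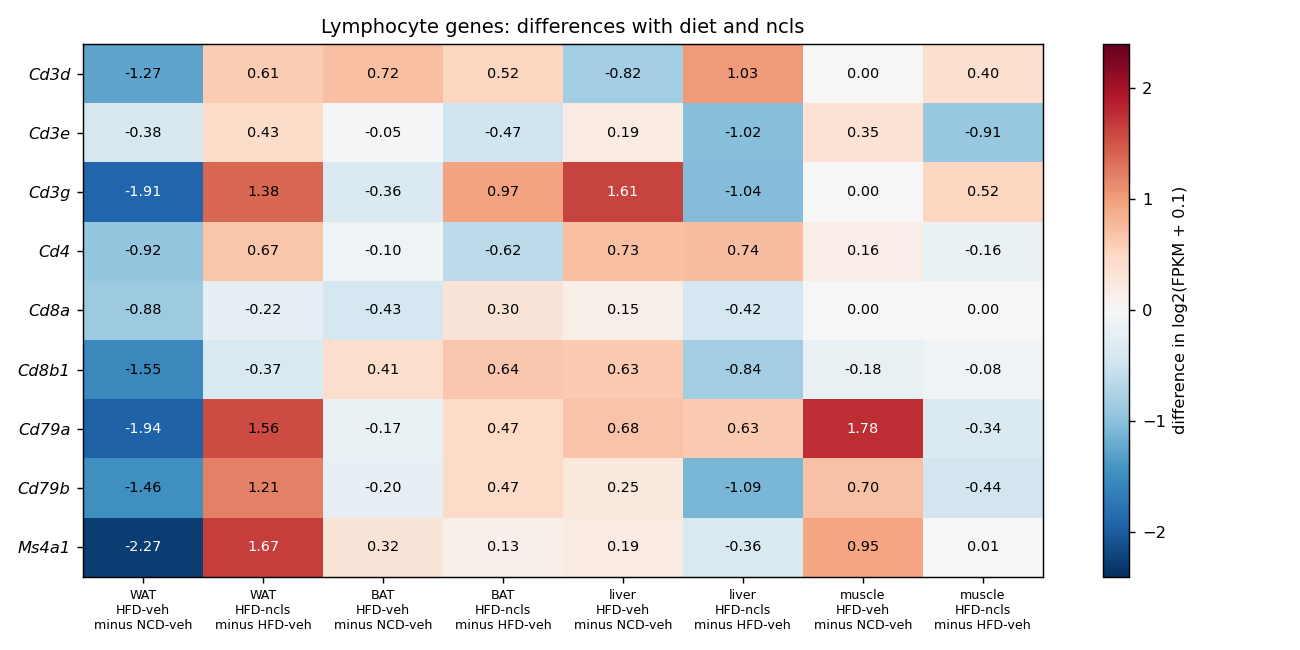
Difference in log2(FPKM + 0.1) of the 9 genes (rows) in the 8 comparisons (columns), with the value written in each cell. Red marks a higher level in the library named first and blue a lower one. The WAT diet column is below 0 for all 9 genes, from -0.38 (Cd3e) to -2.27 (Ms4a1), and no other column has 1 sign throughout.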

How the data were processed

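The 12 libraries (4 organs, 3 groups, 1 library each) were assigned by their sample titles. According to the study's methods, TopHat 2.0.11 was used for alignment to mm9 and Cufflinks for quantification. The authors deposited FPKM per symbol of the RefSeq annotation. No scaling between libraries is stated. For 86 symbols at least 1 library had no value.

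Computations used Python 3.11.15, numpy 2.4.6 and pandas 2.3.3. Log2 ratios used a pseudocount of 0.1, and calls a fold of 2 with an FPKM of at least 1 in 1 of the libraries compared. FPKM are not counts, so no count test was applied, and with 1 library per group no test could be made within an organ. None was run across organs, which were not taken as replicates. Medians over members used every member. Depth was estimated as the number of fragments at which FPKM times length came closest to whole numbers, over genes with 1 annotated transcript (GENCODE M1) of 2000 to 8000 bases. Between 67.5% and 78.9% of values of about 1 to 4 fragments were then within 0.1 of a whole number. Fragments per member were computed with the longest annotated transcript and are approximate, and no interval rests on them. Both procedures were tested on simulated data. The changes planted there were 4-fold, in genes of at least 5 FPKM. No member reaches that level, so calls at the members' levels were not tested.

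The members and gene lists were chosen with earlier results of these data known. Other genes were named when among the 4 highest of their list, when called in a comparison described, or among the 5 most correlated with the members. Cd14, Cd163, Clec4f, Glycam1, Tnfrsf17, Ptprc, Lck in liver, Rag1, Rag2, Igll1, Foxn1, Ucp1 and the neighbouring genes fall outside this rule and were chosen after their values were seen. Some genes that the rule selects are not reported here. Alternatives changed the pseudocount, the filter, the fold or the scaling between libraries.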

Additional observations from a re-analysis of the deposited data

Results flagged for a closer look

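The B cell genes Cd79a, Cd79b and Ms4a1 differed with diet in opposite directions in WAT and muscle. Their median log2 difference between HFD-veh and NCD-veh was -1.94 in WAT and 0.95 in muscle. The median of the 6 T cell genes had opposite signs with ncls in WAT and liver. Their median log2 difference between HFD-ncls and HFD-veh was 0.52 in WAT and -0.63 in liver. Gene by gene, only Cd3e and Cd3g had opposite signs. Cd3d and Cd4 were higher in both organs, and Cd8a and Cd8b1 were lower in both. Each median rests on 1 library per group, so neither difference between organs was tested, and in muscle and liver most members' values rest on fewer than 10 estimated fragments.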

How the results depend on the processing

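Of the recomputed medians and counts 17 moved, and the other 85 did not. A median counted as unmoved when it stayed on the same side of 2-fold and its fold difference within 1.5 times that reported. A count did so when equal to the reported count or within 1.5 times it. Small log2 medians could still change much under this rule. With a pseudocount of 0.01 the B cell median in liver with ncls went from -0.36 to -0.71. The other 85 include all 16 medians and 8 counts obtained by rescaling with the median ratio. Its factors were 0.969 to 1.03, so this setting could shift the values only slightly. In BAT, in muscle and in liver with diet no member reached 1 FPKM. Counts of 0 were therefore fixed there under every setting that kept this filter. A pseudocount of 1 moved the medians in WAT with diet from -1.09 to -0.37 (T cell genes) and from -1.94 to -1.07 (B cell genes), the B cell median in WAT with ncls from 1.56 to 0.87, that in muscle with diet from 0.95 to 0.22, and the calls in WAT with ncls from 3 to 1. A pseudocount of 0.01 moved the T cell median in liver with ncls from -0.63 to -1.23 and the B cell median in muscle with diet to 2.25. With only members of at least 1 FPKM the T cell median in WAT was -1.73 with diet (2 genes) and 1.38 with ncls (1 gene), and in liver with ncls the medians changed sign, to 0.74 (T, Cd4 alone) and 0.63 (B, Cd79a alone). A minimum of 5 FPKM left 0 calls in WAT in either comparison, since no member reaches it. Without a filter, over 2-fold differences numbered 1 in liver with diet, 4 in liver with ncls and 1 in muscle with diet (Cd79a), and at 1.4-fold there were 2 in liver with ncls, where none was called as reported. Why the values moved was not tested. No library could be left out, because each group has 1, and no paired analysis was possible because no group has numbered replicates within an organ. Organs were not used as blocks.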

Other observations

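Some genes of the T cell lists had levels that did not follow the CD3 genes. Zap70, the kinase recruited by phosphorylated CD3, was at 4.57, 4.995 and 6.53 FPKM in liver (NCD-veh, HFD-veh, HFD-ncls), above its highest value elsewhere, 0.526 FPKM in HFD-ncls WAT, while Lck was at most 0.272 FPKM in liver. Cd247, which encodes the zeta chain of the receptor, was at 1.85 to 2.95 FPKM in BAT and 0.864 to 1.42 in muscle, where the 3 CD3 genes summed to at most 0.793 and 0.142 FPKM. S1pr1 (up to 50.7 FPKM in HFD-ncls WAT) is also known from cells other than lymphocytes. Ebf1, a B cell transcription factor that adipocytes use too, was at 73.8 FPKM in NCD-veh WAT and 0.0400 in HFD-veh liver.

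Among genes of lymphocyte precursors, Rag2, Igll1 and Foxn1 were listed at 0 in all 12 libraries, and Rag1 in all but HFD-veh liver. Dntt, the template-independent polymerase of receptor rearrangement, was at 0.544, 1.11 and 1.42 FPKM in the livers, and at most 0.0530 FPKM elsewhere. Bcl6, of the germinal centre list, was at 13.3, 14.3 and 2.39 FPKM in the livers in the same order and was called lower in HFD-ncls.

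The patterns most like those of the members were computed over the 12 libraries, which share organs, so they mainly describe a level that is high in WAT. For the mean of the CD3 genes they included Rps23 (r = 0.983), Tfpi (0.983) and Gm5148 (0.979), and for the mean of the B cell genes they were Rtn1 (0.949), Hdac8 (0.948), Arid4b (0.944), H2-Ob (0.943) and Ltb (0.943). H2-Ob and Ltb are known genes of lymphocytes. Among the members, Cd4 had the lowest r with the mean of the CD3 genes, at 0.560.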
